A study of Mus musculus with 4 samples.

Results

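Nuclear pore and nuclear transport genes were followed by Sun1 genotype in tumour, myeloid, NK and T nuclei of CT26 tumours. The set holds 32 genes, chosen by symbol from the 32285 genes of the deposited expression tables: 29 encode parts of the nuclear pore complex or proteins bound to it, and 3 encode transport receptors. All 32 symbols were found in both tables. CT26 is a mouse colon cancer line that grows in BALB/c mice. Sun1_WT or Sun1_KO CT26 cells (1000000 per mouse) were placed under the skin of BALB/c mice, and tumours were taken on day 14. The knockout is carried by the injected cells only, so the myeloid, NK and T nuclei come from hosts for which the labels give no Sun1 change. The assay used takes both RNA and chromatin accessibility from every nucleus, and each genotype gave 1 expression and 1 accessibility library. The labels do not give the number of animals or tumours behind a library, or whether the knockout line is 1 clone.

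The nuclear pore complex is the channel through which proteins and RNA pass between the nucleus and the cytoplasm. A scaffold of outer Y-shaped complexes and an inner ring is anchored in the nuclear membrane by transmembrane proteins, carries a central channel of phenylalanine-glycine repeat proteins, and bears filaments on the cytoplasmic face and a basket on the nuclear face. Import receptors of the importin family and export receptors such as Xpo1 carry cargo through it under the control of the Ran GTPase. Sun1 spans the inner nuclear membrane, belongs to the LINC complex between lamina and cytoskeleton, and is known to associate with nuclear pores.

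With 1 expression library per genotype there were no replicates and no test between genotypes was possible. Each value is a sum of UMIs (unique molecular identifiers, counted RNA molecules) over the nuclei of a class, scaled to 1000000 UMIs of that class without mitochondrial genes (CPM). Every genotype ratio is Sun1_KO over Sun1_WT on the log2 scale, and the brackets hold a 95% interval for counting error only. A member was counted as higher when its level was at least 25% above, and as lower when it was at least 20% below, the level it was compared with, which is the same fold in either direction. A stricter count used 1.5-fold. In each comparison the first count of all members is set beside the share of all measured genes past the same fold.

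Classes were taken by marker genes, none of which is a member. They held 2389 Sun1_WT and 1276 Sun1_KO tumour nuclei, 258 and 211 myeloid, 77 and 73 NK, and 56 and 97 T nuclei, while 565 and 515 nuclei fell in no class. Median UMIs per nucleus were 17058 and 16909.5 in tumour nuclei, 5359.5 and 5259 in myeloid, 3025 and 2468 in NK and 2829 and 3362 in T nuclei. The 6 tumour markers summed to 3934 and 5609 CPM in tumour nuclei and to between 71.3 and 106 CPM in the host classes. Xist stood at 6.97 and 17.4 CPM in tumour nuclei and between 1366 and 2195 CPM in host nuclei. In tumour nuclei the 10 myeloid markers, all detected, summed to 62.1 and 87.3 CPM, and Ptprc, the pan-leukocyte marker, stood at 3.84 and 11.9 CPM. Mitochondrial UMIs made up 6.92% of the Sun1_WT and 11.3% of the Sun1_KO tumour sum, and in the host classes 3.68% to 5.95% against 8.48% to 9.61%. The part of these differences in the ratios below was not tested beyond the alternatives given at the end. The expression libraries shared 12 cell barcodes. Sun1 itself was lower in Sun1_KO tumour nuclei, at 4479 UMIs (105 CPM) in Sun1_WT and 1496 UMIs (64.1 CPM) in Sun1_KO, a log2 ratio of -0.71 (-0.79 to -0.62).

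Promoter sequences are shown for 3 members on which the later results turn, as the 250 bases before the gene's start in RefSeq (GRCm38.p6, mm10 coordinates), 5′ to 3′ on the gene's strand. Kpna2 and Ndc1 had the largest RNA ratio between G2/M-marker-high and G2/M-marker-low nuclei, and Nup50 had the only promoter counted as less accessible in Sun1_KO tumour nuclei. Capitals in Kpna2 (chr11:106999526-106999775, minus strand) mark the cell cycle homology region letters TTTGAA, found there as their reverse complement, and a CCAAT box. Capitals in Ndc1 (chr4:107367797-107368046, plus strand) mark TTTGAA. Capitals in Nup50 (chr15:84923178-84923427, plus strand) mark the palindromic NRF1 motif in 3 runs and CCAAT boxes in either orientation.
Kpna2: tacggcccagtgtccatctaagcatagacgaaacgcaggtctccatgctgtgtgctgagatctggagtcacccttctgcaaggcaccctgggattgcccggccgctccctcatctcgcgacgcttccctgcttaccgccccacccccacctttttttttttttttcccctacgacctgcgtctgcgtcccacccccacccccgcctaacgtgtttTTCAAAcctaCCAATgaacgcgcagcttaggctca
Ndc1: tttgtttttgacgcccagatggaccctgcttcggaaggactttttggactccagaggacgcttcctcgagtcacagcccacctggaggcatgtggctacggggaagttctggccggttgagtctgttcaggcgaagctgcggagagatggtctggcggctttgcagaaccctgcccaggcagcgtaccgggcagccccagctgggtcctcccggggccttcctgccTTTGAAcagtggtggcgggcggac
Nup50: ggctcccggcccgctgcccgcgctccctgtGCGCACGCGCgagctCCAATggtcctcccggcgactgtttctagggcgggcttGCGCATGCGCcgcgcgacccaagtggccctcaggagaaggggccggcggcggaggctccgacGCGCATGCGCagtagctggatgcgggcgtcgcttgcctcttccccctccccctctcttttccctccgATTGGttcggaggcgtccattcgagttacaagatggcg

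These letters were looked for on both strands of the 28 members with a RefSeq promoter entry, in the 300 bases from 250 before to 50 after the start, beside all 27025 promoters of the table. TTTGAA was in 7 members (25%: Kpna2, Ndc1, Nup37, Nup98, Pom121, Sec13 and Tpr) and in 18.1% of all promoters. CCAAT was in 12 members (42.9%) and in 37.9% of all promoters. The ETS letters CCGGAAG were in 8 members (28.6%) against 9.12%, and the NRF1 motif was in 4 members (14.3%: Nup107, Nup50, Nup62 and Rae1) against 4.78%. The E2F letters TTTCCCGC were in Nup210 only, 3.57% of the members against 1.11%. These matches are descriptions of the letters and not binding sites.

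In tumour nuclei the members as a group stood slightly higher in Sun1_KO, with Nup98, Kpna2, Nup153 and Nup160 highest and Tpr and Sec13 lowest. All 32 passed the minimum of 100 UMIs over both libraries. Their summed RNA was 115621 UMIs in Sun1_WT and 71255 in Sun1_KO, or 2706 and 3055 CPM, a ratio of 0.17 (0.16 to 0.19). The median member ratio was 0.23, while the median over all 12973 measured genes was 0.14. Ratios were above 0 for 25 members and below 0 for 7, beside 62.1% of all genes above 0. Above the median of all genes lay 19 members. With TMM scaling or median-ratio scaling, which brought the median of all genes close to 0, the split was 19 above and 13 below 0, as Ahctf1, Nup188, Nup54, Rae1, Gle1 and Nup210 moved below 0. By at least 25%, 9 members were higher, beside 32.2% of all genes, and by at least 20%, 2 were lower, beside 18.9%. At 1.5-fold, 2 were higher (Nup98 and Kpna2; 11.7% of all genes) and 0 were lower (9.29%). The share of members counted as higher was thus not above that of all genes. Per nucleus, the summed member level had a median of 2415 CPM in Sun1_WT, with 1426 and 3686 CPM at the 10th and 90th percentiles, and 2885 CPM in Sun1_KO, with 1619 and 4195 CPM. The ranges of the nuclei overlapped widely.

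**Figure D1:**
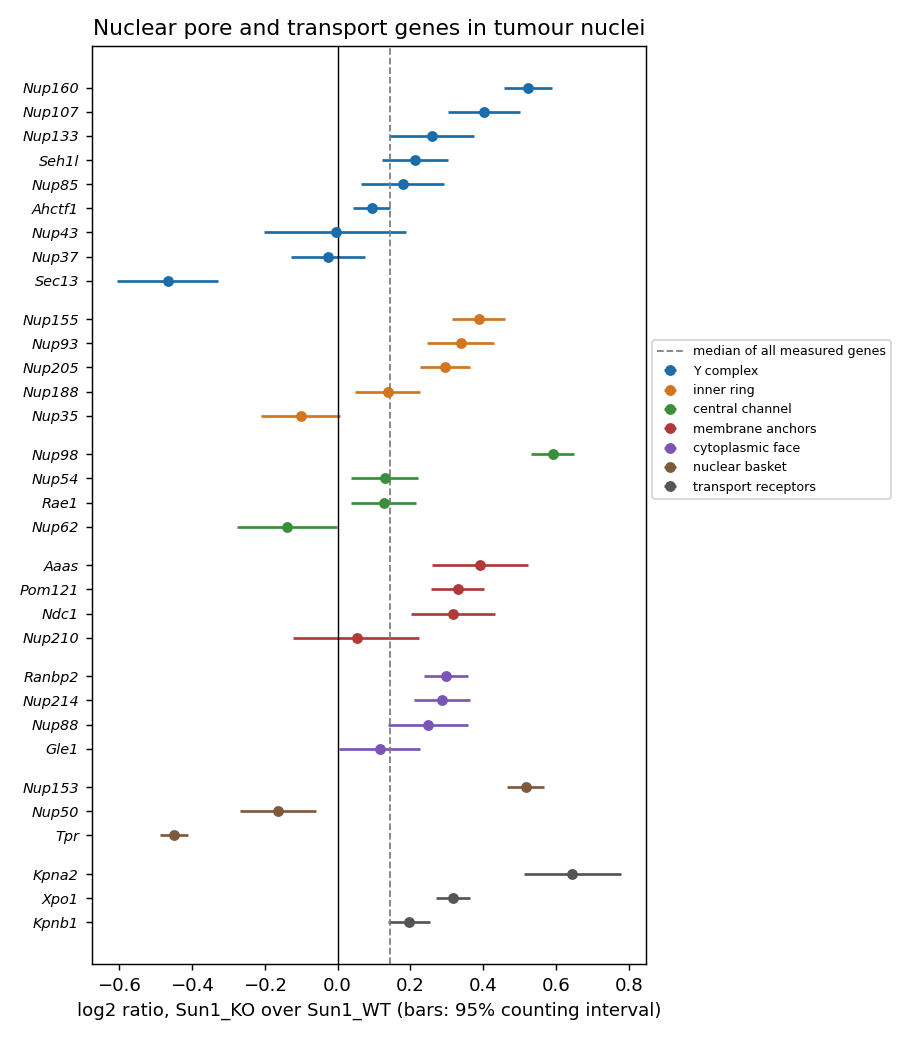
Log2 ratio of Sun1_KO over Sun1_WT (x axis) for each of the 32 genes (y axis) in tumour nuclei, coloured by place in the pore; bars are 95% counting intervals from 1 library per genotype and the dashed line is the median of all measured genes (0.14). Most points lie between 0 and 0.4, with Kpna2 and Nup98 near 0.6 and Tpr and Sec13 below -0.4.

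The Y complex, the outer scaffold of the pore, had a median ratio of 0.18 over its 9 members. Nup160, one of its large scaffold proteins (chromosome 2, 90677215 to 90739327), had 4329 UMIs (101 CPM) in Sun1_WT and 3395 UMIs (146 CPM) in Sun1_KO, a ratio of 0.52 (0.46 to 0.59). Nup107, another scaffold subunit, stood at 46.4 CPM (1981 UMIs) and 61.3 CPM (1429 UMIs), a ratio of 0.40 (0.30 to 0.50). These 2 genes were the ones of the complex counted as higher in Sun1_KO. Ahctf1, also called Elys, which recruits the Y complex to chromatin, had the most UMIs of the complex and stood at 197 and 210 CPM (8416 and 4900 UMIs), a ratio of 0.09 (0.04 to 0.14), below the median of all genes. Nup37 stood at 52.1 and 51.1 CPM (2225 and 1193 UMIs), a ratio of -0.03 (-0.13 to 0.08), and Nup43 had -0.00 (-0.20 to 0.19). Neither differed between the libraries beyond counting error. Nup133 (0.26, 0.14 to 0.37), Seh1l (0.21, 0.12 to 0.30) and Nup85 (0.18, 0.06 to 0.29) lay between, with intervals above 0. Sec13, which also serves in the COPII coat of secretory vesicles, went the other way: it had 1496 UMIs (35.0 CPM) in Sun1_WT and 591 UMIs (25.3 CPM) in Sun1_KO, a ratio of -0.47 (-0.61 to -0.33; chromosome 6, 113728052 to 113740681).

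The inner ring, which lines the channel and ties the scaffold to the membrane, had a median of 0.29 over 5 members. Nup155 stood at 85.0 CPM (3633 UMIs) and 111 CPM (2595 UMIs), a ratio of 0.39 (0.32 to 0.46). Nup205, the member of this ring with the most UMIs, stood at 102 CPM (4348 UMIs) and 125 CPM (2911 UMIs), a ratio of 0.29 (0.23 to 0.36). Nup93, the hub of the ring, had a ratio of 0.34 and Nup188 had 0.14, so 4 of the 5 lay above 0 (Nup188 fell below 0 under TMM and median-ratio scaling). Nup35 stood at 47.2 and 44.0 CPM (2019 and 1027 UMIs), a ratio of -0.10 (-0.21 to 0.01), whose interval includes 0.

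Among the 4 central channel and associated members, Nup98, a mobile repeat protein that binds the mRNA export factor Rae1, stood apart. It had 4981 UMIs (117 CPM) in Sun1_WT and 4094 UMIs (176 CPM) in Sun1_KO, a ratio of 0.59 (0.53 to 0.65; chromosome 7, 102119400 to 102210166). Rae1 had a ratio of 0.13 and Nup54, a repeat protein of the channel, also 0.13. Nup62, the partner of Nup54 in the channel, had 30.8 and 27.9 CPM (1315 and 652 UMIs), a ratio of -0.14 (-0.28 to -0.00). Of the 4, only Nup98 was counted as higher, and none as lower.

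The 4 membrane anchor members, Aaas included, had ratios above 0 with a group median of 0.32. Nup210, however, lay below 0 under TMM (-0.091) and median-ratio scaling (-0.089), and at -0.72 when each nucleus was thinned to 1000 UMIs. It was also below 0 with mitochondrial genes in the total (-0.017), at most 10% mitochondrial UMIs (-0.087) and the stricter marker gate (-0.021). Pom121, a transmembrane anchor, had the most UMIs of the group and stood at 86.3 CPM (3687 UMIs) and 108 CPM (2529 UMIs), a ratio of 0.33 (0.26 to 0.40). Aaas, the protein aladin, had 0.39 (0.26 to 0.52) and Ndc1, the transmembrane protein that holds aladin, had 0.32 (0.20 to 0.43). Nup210 stood at 17.9 and 18.6 CPM (767 and 434 UMIs), a ratio of 0.05 (-0.12 to 0.22), not different beyond counting error. On the cytoplasmic face, where export complexes are taken apart, the 4 members had a median of 0.27 and none was counted as higher or lower. Ranbp2, the large filament protein that binds Ran and carries SUMO ligase activity, stood at 133 CPM (5693 UMIs) and 164 CPM (3820 UMIs), a ratio of 0.30 (0.24 to 0.36). Nup214 had 0.29, its partner Nup88 had 0.25 and the mRNA export factor Gle1 had 0.12.

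The 3 nuclear basket members went in different directions. Nup153, which anchors the basket to the pore (chromosome 13, 46679902 to 46727849), had 7091 UMIs (166 CPM) in Sun1_WT and 5538 UMIs (237 CPM) in Sun1_KO, a ratio of 0.52 (0.47 to 0.57). Tpr, the coiled-coil protein that forms the basket's filaments (chromosome 1, 150392802 to 150449935), had 18981 UMIs (444 CPM) and 7588 UMIs (325 CPM), a ratio of -0.45 (-0.49 to -0.41). Nup153 was thus 1.43-fold higher and Tpr was at 0.73 of its Sun1_WT level. Nup50, a mobile basket protein that helps release import cargo, stood at 53.5 CPM (2287 UMIs) and 47.8 CPM (1115 UMIs), a ratio of -0.16 (-0.27 to -0.06; chromosome 15, 84923428 to 84942963). Tpr lay between -0.59 and -0.37 and Nup153 between 0.37 and 0.81 over the alternative settings tried, so their order did not change among them.

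The 3 transport receptors had ratios above 0 with intervals that exclude 0, and 1 of them, Kpna2, was counted as higher. Kpna2, the importin alpha adaptor that reads nuclear localization signals (chromosome 11, 106988629 to 106999525), had 995 UMIs (23.3 CPM) and 849 UMIs (36.4 CPM), a ratio of 0.64 (0.51 to 0.78). Xpo1, the main export receptor for proteins with leucine-rich signals, had 8842 UMIs (207 CPM) and 6014 UMIs (258 CPM), a ratio of 0.32 (0.27 to 0.36). Kpnb1, the importin beta that carries Kpna2 and its cargo, had a ratio of 0.20 (0.14 to 0.25). Beyond the members, a list of 38 other transport genes was taken, of which 37 were matched. Its median ratio was 0.35, 20 were counted as higher (32.2% of all genes) and 4 as lower (18.9%), and at 1.5-fold 4 were higher (11.7%) and 1 was lower (9.29%). The highest were the import receptor Tnpo2, at 70.3 and 124 CPM (3005 and 2895 UMIs; 0.82, 0.75 to 0.89), and the mRNA export receptor Nxf1, at 34.5 and 53.0 CPM (1476 and 1236 UMIs; 0.62, 0.51 to 0.73). The lowest were Nxt1, the partner of Nxf1, at 31.0 and 17.6 CPM (1325 and 411 UMIs; -0.81, -0.98 to -0.65), and the GTPase Ran, at 608 and 413 CPM (25995 and 9637 UMIs; -0.56, -0.59 to -0.52). Of the 37, 31 lay above 0 and 6 below, beside 62.1% of all genes above 0.

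In tumour nuclei the members' ratios went with the length of the gene locus, as did those of all genes. Over all genes with a known span (12217, 94.2% of those measured), the median ratio was -0.13 for loci up to 10 kb, 0.08 from 10 to 20 kb, 0.16 from 20 to 40 kb, 0.25 from 40 to 80 kb and 0.31 above 80 kb. No member spans under 10 kb, and in the other classes of length the members had medians of 0.13 (9 genes), 0.20 (7), 0.30 (13) and 0.34 (3). Spearman's rho between span and ratio was 0.33 over all genes and 0.29 over the 32 members, a description across genes that share the same libraries. In myeloid nuclei the order was not the same, with a rho of 0.17 over all genes and -0.47 over the 15 measured members. The member median in tumour nuclei lay above that of all genes by 0.052, 0.034, 0.043 and 0.024 in these 4 classes of length. Tpr, at 57.1 kb, and Sec13, at 12.6 kb, lay below the median of genes of their length.

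In the authors' deposited table of 10156 genes, all 32 members had a positive log2 fold change, from 0.15 to 1.04 with a median of 0.69. The table does not state its direction. Sun1 was at -0.35 in the authors' deposited table and lower in Sun1_KO in the counts, so positive values were read as higher in Sun1_KO. Of the members, 31 had an adjusted p under 0.05 in the authors' deposited table, as did 84.9% of all its genes in the same direction, and 92.9% of its genes were positive. There, 20 members lay above the median of all genes (0.59). Sec13 (0.16) was the 1 member without such a p, and Tpr had 0.15 in the authors' deposited table while its ratio of summed UMIs was -0.45. The sources used here do not say which nuclei entered that table, and its p-values compare nuclei of 1 library each, not replicates.

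Most members were higher in tumour nuclei with high G2/M marker levels than in those with low levels, in both libraries. Nuclei were split by 10 G2/M markers, none of them a member, at 20 or more UMIs per 10000 (688 Sun1_WT and 407 Sun1_KO nuclei) and under 5 (1348 and 641 nuclei). The high nuclei made up 28.8% (27.0% to 30.7%, exact binomial) of Sun1_WT and 31.9% (29.3% to 34.5%) of Sun1_KO tumour nuclei, intervals that overlap. The low nuclei made up 56.4% (54.4% to 58.4%) and 50.2% (47.5% to 53.0%), intervals that do not overlap. These intervals cover the counting of nuclei in 1 library per genotype and not variation between tumours. The median member ratio of high over low nuclei was 0.82 in Sun1_WT and 0.70 in Sun1_KO, while the median over all genes was -0.06 and -0.05. In Sun1_WT 25 members were at least 25% higher (18.1% of all genes) and in Sun1_KO 24 (17.0%), and 0 were at least 20% lower in either library (26.2% and 23.8% of all genes). At 1.5-fold, 20 and 18 were higher, beside 9.72% and 8.94% of all genes. High nuclei held more UMIs, with medians of 25481.5 and 22939, than low nuclei, with 14120.5 and 14368. After thinning each nucleus to 1000 UMIs, the member median was 0.84 in Sun1_WT and 0.87 in Sun1_KO.

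Kpna2 had the largest difference of all members. It stood at 3.57 CPM (67 UMIs) in low and 50.4 CPM (881 UMIs) in high Sun1_WT nuclei, a ratio of 3.81 (3.46 to 4.20), and at 6.86 CPM (63 UMIs) and 73.3 CPM (734 UMIs) in Sun1_KO, a ratio of 3.41 (3.04 to 3.81). Ndc1 stood at 11.9 and 59.2 CPM in Sun1_WT (2.31, 2.10 to 2.53) and at 17.8 and 66.2 CPM in Sun1_KO (1.89, 1.65 to 2.15). Nup37 stood at 26.7 and 82.6 CPM in Sun1_WT (1.63, 1.48 to 1.78) and at 24.1 and 81.6 CPM in Sun1_KO (1.76, 1.54 to 1.98). The next were Nup107 (1.71 and 1.59) and Aaas (1.67 and 1.20). Each of these was higher in high nuclei beyond counting error in both libraries. The 7 members with TTTGAA in their promoter had ratios over the whole range: beside Kpna2, Ndc1 and Nup37 they were Pom121 (1.06 and 0.98), Tpr (0.40 and 0.37), Nup98 (0.26 and 0.42) and Sec13 (0.08 and -0.16), while Nup107 and Aaas had no match. The smallest ratios were those of Nup210 (-0.08 and -0.25), Rae1 (-0.11 and -0.14) and Sec13 (0.08 and -0.16), each with an interval that includes 0 in both libraries. The cytoplasmic face genes Ranbp2 (0.21 and 0.18) and Nup214 (0.22 and 0.22) also differed little, so the members did not move as 1 block. Among nuclei with low G2/M markers, those with at least 8 UMIs per 10000 of 8 S-phase markers had higher member levels than those under 4, with medians of 0.63 in Sun1_WT and 0.52 in Sun1_KO. Of 31 measured members, 23 were counted as higher in Sun1_WT (22.0% of all genes), and of 30 measured in Sun1_KO, 18 were (20%).

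**Figure D2:**
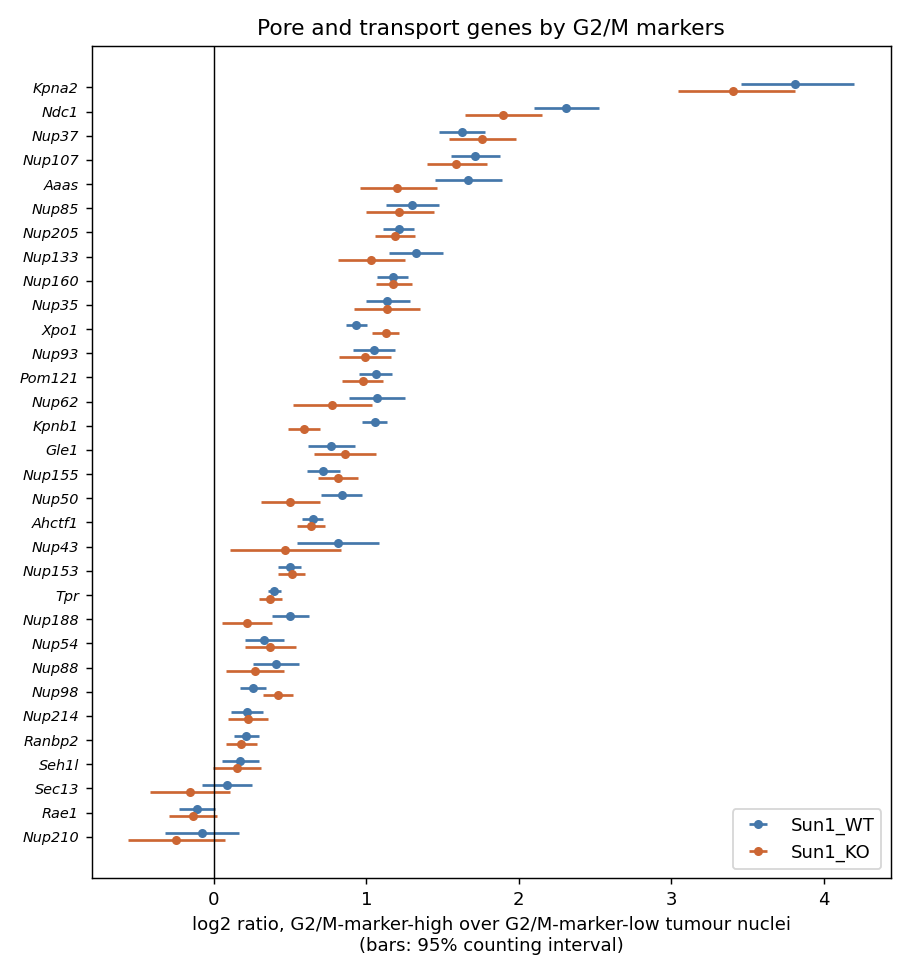
Log2 ratio of G2/M-marker-high over G2/M-marker-low tumour nuclei (x axis) for each gene (y axis) in Sun1_WT (blue) and Sun1_KO (orange), with 95% counting intervals. Kpna2 (3.81 and 3.41) and Ndc1 (2.31 and 1.89) lie far to the right, and Sec13, Rae1 and Nup210 lie near 0 in both libraries.

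The genotype ratios were then taken within each side of this split. In G2/M-high nuclei the median member ratio was 0.16 and 6 of 32 members were counted as higher in Sun1_KO, beside 32% of all genes. In G2/M-low nuclei the median was 0.26 and 14 of 32 were higher, beside 29.5%. Nup153 had 0.50 (0.43 to 0.58) in high and 0.49 (0.40 to 0.58) in low nuclei, and Tpr had -0.49 (-0.54 to -0.43) and -0.46 (-0.53 to -0.40). Nup98 had 0.64 (0.55 to 0.72) and 0.47 (0.37 to 0.57), and Nup160 had 0.52 and 0.51. These 4 genes differed between the genotypes in the same direction on both sides of the split. The same held for other members, among them Nup155 (0.42 in high and 0.32 in low nuclei), Ranbp2 (0.31 and 0.34) and Sec13 (-0.55 and -0.31). Some members had ratios of unlike size on the sides, though Xpo1 and Kpna2 among them kept their direction. Kpnb1 had -0.004 (-0.09 to 0.08) in high and 0.46 (0.35 to 0.57) in low nuclei. Xpo1 had 0.35 (0.28 to 0.41) in high and 0.15 (0.06 to 0.25) in low nuclei. Kpna2 had 0.54 (0.40 to 0.68) in high and 0.94 (0.42 to 1.46) in low nuclei, the latter from 67 and 63 UMIs. Nup50 had -0.27 (-0.42 to -0.13) in high and 0.07 (-0.12 to 0.25) in low nuclei. The difference between the sides was not tested. The G2/M markers summed to 2428 CPM in Sun1_WT and 2432 CPM in Sun1_KO tumour nuclei.

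In myeloid nuclei, which come from the host, Nup153 and Pom121 were again higher in the Sun1_KO library, and Tpr was not lower. Only 15 members reached 100 UMIs, and their median ratio was 0.26, beside 0.08 over 5066 genes. By at least 25%, 5 were higher, beside 21.9% of all genes, and 0 were counted as lower, beside 14.3%. At 1.5-fold, 2 were higher, beside 5.72%. Nup153 had 126 UMIs (86.5 CPM) and 160 UMIs (144 CPM), a ratio of 0.74 (0.39 to 1.09). Pom121 had 44 UMIs (30.2 CPM) and 58 UMIs (52.3 CPM), a ratio of 0.79 (0.20 to 1.39). Ranbp2 had 353 UMIs (242 CPM) and 337 UMIs (304 CPM), a ratio of 0.33 (0.11 to 0.55). These 3 intervals lie above 0. So does that of Nup98, at 157 and 192 CPM (228 and 213 UMIs), a ratio of 0.30 (0.02 to 0.57). Tpr stood at 317 and 310 CPM (461 and 344 UMIs), a ratio of -0.03 (-0.24 to 0.18). Nup205 stood at 65.9 and 61.3 CPM (96 and 68 UMIs; -0.10, -0.57 to 0.36), and Xpo1 at 160 and 179 CPM (233 and 198 UMIs; 0.16, -0.12 to 0.44). The other 17 members had 21 to 96 UMIs over both libraries, and their values were not counted. Over all 32 members the myeloid sum was 1967 and 2286 CPM, a ratio of 0.22 (0.14 to 0.29), close in size to that in tumour nuclei. In these nuclei the 10 myeloid markers summed to 15330 CPM in Sun1_WT and 10680 CPM in Sun1_KO, and the G2/M markers to 1076 and 1156 CPM, and their part in the ratios was not tested. The labels give no Sun1 change for the host, and whether the tumour and myeloid differences have the same source was not tested.

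In NK nuclei 19 members reached the lower minimum of 20 UMIs, with a median ratio of 0.13, beside 0.11 over all genes. There 5 were counted as higher (35.8% of all genes) and 1 as lower (26.3%). In T nuclei 26 members reached it, with a median of 0.18, beside 0.03. Of these, 11 were counted as higher (29.5% of all genes) and 2 as lower (25.7%). The member sum was 2716 and 2950 CPM in NK nuclei, a ratio of 0.12 (-0.04 to 0.28), and 2817 and 3283 CPM in T nuclei, a ratio of 0.22 (0.07 to 0.37). The G2/M markers summed to 1667 and 1042 CPM in NK nuclei and to 2028 and 1920 CPM in T nuclei, and the NK markers to 1650 and 1178 CPM in T nuclei, whose part in these ratios was not tested. The largest ratios in T nuclei rested on few UMIs: Nup205 had 8 and 50 UMIs (1.58, 0.57 to 2.95), Nup188 had 3 and 23 (1.76, 0.23 to 4.33) and Nup160 had 6 and 32 (1.34, 0.15 to 2.98). Nup153 had 154 and 148 CPM in NK (42 and 27 UMIs) and 133 and 191 CPM in T nuclei (24 and 68 UMIs), and neither interval of its ratio excludes 0. The same holds for Tpr, at 367 and 334 CPM in NK and 483 and 429 CPM in T nuclei. The sign of the NK and T medians turned under several alternative settings, given at the end.

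**Figure D3:**
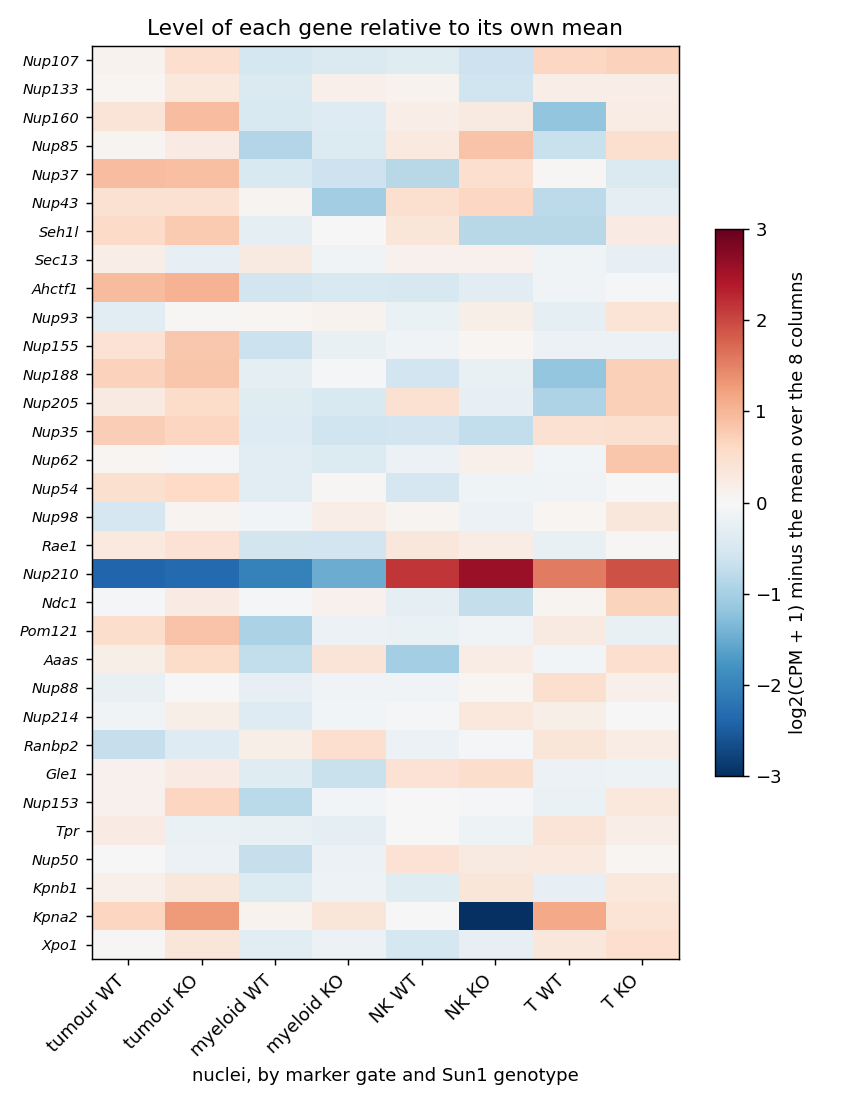
Level of each gene as log2(CPM + 1) minus its mean over the 8 columns, by nucleus class and genotype, with red above and blue below that mean and 1 library per genotype. Nup210 is the gene with the strongest contrast, red in NK and T and blue in tumour and myeloid columns, and the dark Kpna2 cell in Sun1_KO NK nuclei rests on 0 UMIs, for which a floor of 3 counts allows up to 16.4 CPM.

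Within each library, most members were higher in tumour than in myeloid nuclei. The median ratio of tumour over myeloid nuclei was 0.58 in Sun1_WT and 0.61 in Sun1_KO, beside 0.23 and 0.22 over all genes. In tumour nuclei 24 members were at least 25% higher in Sun1_WT (46.4% of all genes) and 20 in Sun1_KO (46.2%), and 4 and 2 were at least 20% lower (31.7% and 31.8%). Ahctf1 (1.5 in both libraries), Pom121 (1.5 and 1.04) and Nup37 (1.41 and 1.54) were among the highest. Ranbp2 went the other way in both libraries, at 133 CPM in tumour and 242 CPM in myeloid nuclei of Sun1_WT (-0.87, -1.02 to -0.70) and at 164 and 304 CPM in Sun1_KO (-0.89, -1.05 to -0.73). Nup210 was also lower in tumour nuclei, at -0.40 (-0.87 to 0.16) in Sun1_WT and -0.90 (-1.36 to -0.36) in Sun1_KO. The G2/M markers summed to 2428 and 2432 CPM in tumour and to 1076 and 1156 CPM in myeloid nuclei, and their part was not tested. A part of the RNA counted in host nuclei may be free RNA from tumour cells. The tumour marker sums above give its scale, and its part was not tested.

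Nup210, a membrane anchor known for cell-type-restricted expression, had a pattern unlike the other members. It stood at 437 CPM (119 UMIs) in Sun1_WT and 592 CPM (108 UMIs) in Sun1_KO NK nuclei, and at 289 CPM (52 UMIs) and 367 CPM (131 UMIs) in T nuclei. In tumour nuclei it stood at 17.9 and 18.6 CPM, and in myeloid nuclei at 23.4 CPM (34 UMIs) and 34.3 CPM (38 UMIs). The lymphocyte levels were thus more than 10 times those of the tumour nuclei in both libraries: the tumour over NK ratio was -4.61 and -5.00, and the tumour over T ratio was -4.02 and -4.31. Its genotype ratio was 0.44 (0.05 to 0.83) in NK and 0.34 (-0.13 to 0.84) in T nuclei. The counting intervals of the NK and T levels overlapped in Sun1_WT and not in Sun1_KO, and the tumour and myeloid levels lay far below both. Its promoter region (chr6:91116456-91117328) was accessible in all 4 classes, at 46.7 and 41.6 CPM of accessibility counts in tumour, 33.5 and 38.7 in myeloid, 80.3 and 70.5 in NK and 55.3 and 86.5 in T nuclei. The promoter contrast between lymphocytes and tumour nuclei was therefore much smaller than the RNA contrast.

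**Figure D4:**
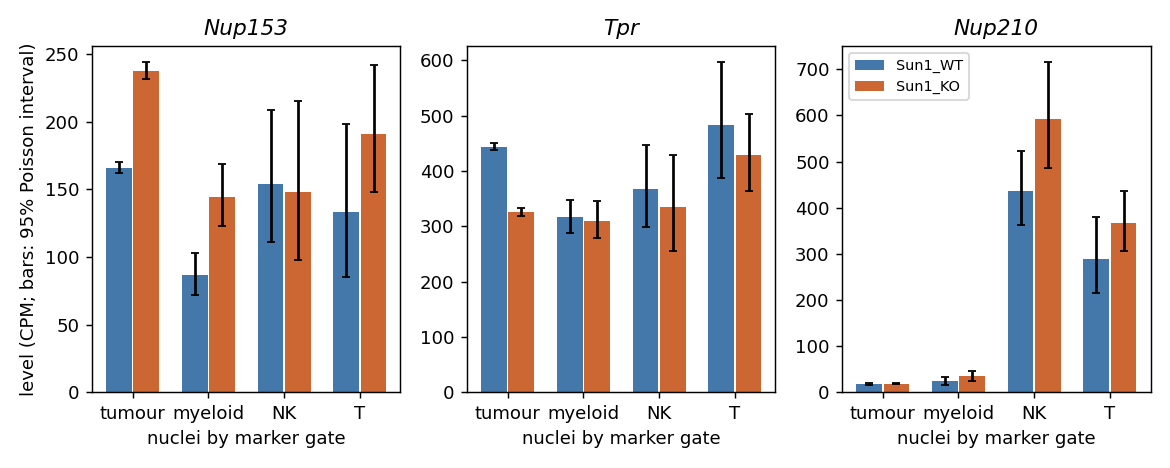
Levels of Nup153, Tpr and Nup210 (CPM, y axes from 0, each on its own scale) by nucleus class in Sun1_WT (blue) and Sun1_KO (orange), with 95% Poisson intervals for counting error. Nup153 is higher in Sun1_KO in tumour and myeloid nuclei, Tpr is lower in Sun1_KO beyond counting error in tumour nuclei and not in the host classes, and Nup210 stands at 289 to 592 CPM in NK and T nuclei and below 35 CPM in the others.

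Promoter accessibility at the members differed little between the genotypes in tumour nuclei, apart from Nup50. Of the 28 members with a promoter entry, 27 overlapped a peak, and the window of Nup160 overlapped none. The median ratio of these 27 was -0.03, beside -0.01 over 11321 promoter regions. By at least 25%, 0 members were more accessible in Sun1_KO (10.3% of all promoter regions), and 1 was at least 20% less accessible (6.07%). That region, at Nup50 (chr15:84922803-84923689), had 13899 counts (74.1 CPM) in Sun1_WT and 6631 counts (51.5 CPM) in Sun1_KO, a ratio of -0.53 (-0.57 to -0.48). It contains the sequence shown for Nup50 above. The 178 regions within 1 Mb of the Nup50 promoter had a median of -0.41, and 11 genes within 1 Mb had a median RNA ratio of -0.19. Whether Nup50 differed from these neighbours was not tested. In myeloid nuclei the Nup50 region had a ratio of -0.20 (-0.37 to -0.03) and its 28 neighbouring regions a median of -0.02.

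Members with the largest RNA ratios had promoter ratios near 0. Nup98 had -0.04, Nup153 had -0.01, Kpna2 had 0.01 and Tpr had -0.03, and Sec13 had 0.07. Ndc1 had the highest promoter ratio, 0.20 (0.13 to 0.28), and after Nup50 the lowest were Nup62 (-0.21) and Nup210 (-0.17). In myeloid nuclei the median was -0.08, beside -0.07 over all promoter regions, with 0 members counted as more accessible (4.12%) and 3 as less accessible (12.2%): Aaas (-0.56), Sec13 (-0.50) and Nup37 (-0.33). Even numbers made up 75.5% and 75% of the recorded accessibility values, so the counts are not independent single events and these intervals are too narrow even for counting error.

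**Figure D5:**
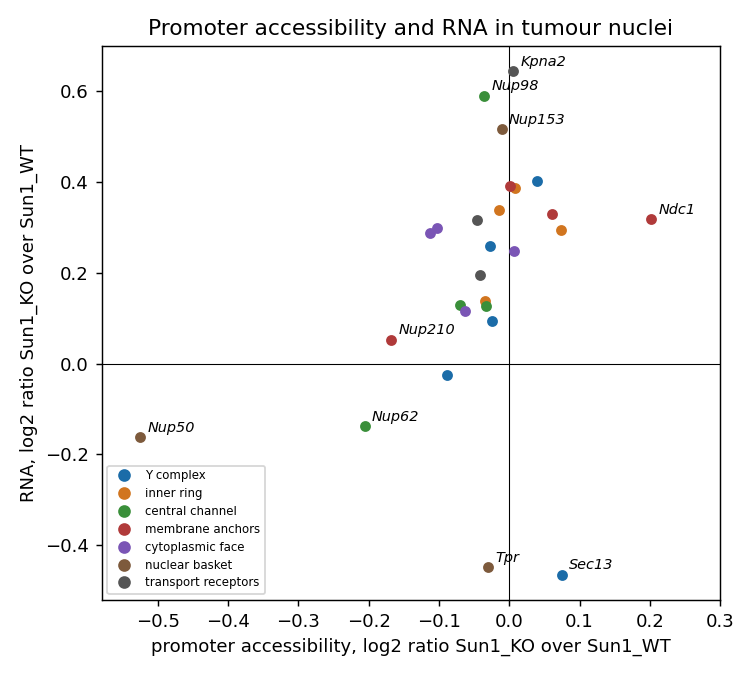
RNA ratio (y axis) against promoter accessibility ratio (x axis), both log2 of Sun1_KO over Sun1_WT in tumour nuclei, for the 27 genes with a promoter region, coloured by place in the pore. Most points stand in a narrow vertical band near 0 on the x axis while RNA ratios run from -0.47 to 0.64, and Nup50 lies alone at the left (-0.53).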

How the data were processed

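The deposited expression tables hold counts (UMIs per gene and nucleus) and the deposited accessibility tables hold counts per peak and nucleus, 1 library per table. The build mm10 and the tools Cell Ranger ARC, Cell Ranger, Signac, Seurat and FastQC stand in the submitters' processing notes without versions or order. In the authors' deposited table, baseMean is a signal, the log2 fold changes and their errors are log2 values, the Wald statistic is a score, and the p-values come from DESeq2, per the file headers.

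The members, lists and comparisons were chosen with earlier results of these data known. Nuclei under 500 UMIs or 300 genes, or with over 20% mitochondrial UMIs, were left out (110 of Sun1_WT, 232 of Sun1_KO). Classes were gated on summed markers per 10000 UMIs. Tumour nuclei had at least 10, from 3 or more of 6 markers, and at most 4 of leukocyte markers. Myeloid nuclei had at least 16 from 3 or more markers, and NK and T nuclei at least 8 from 2 or more, each with at most 5 of tumour markers. Nuclei with markers of several classes got no class (174 and 207 had both tumour and leukocyte markers), and no doublet caller was run. The gates, the marker splits, the 1 Mb neighbourhoods, the motifs, the choice of printed promoters and the attention to Nup210 were set after seeing the data.

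UMIs were summed by class and library, and ratios were taken after adding 0.5, for genes with at least 100 UMIs (20 in NK and T nuclei) over both libraries. Intervals were exact conditional binomial for ratios, exact binomial for shares and exact Poisson for levels. The genes given with full values were Sun1, the 6 highest and 6 lowest members in tumour nuclei by the interval bound nearest a ratio of 1, the member with most UMIs in each group, the 3 highest and 3 lowest in myeloid nuclei, the 3 largest and 3 smallest G2/M ratios, and 2 highest and 2 lowest of the wider list. Peaks overlapping by 1 bp were merged, and each RefSeq promoter window took the region it overlapped most. Locus spans came from RefSeq (GRCm38.p6). The older symbol Nupl2 was used for Nup42, and Nup58 was not matched. The ratio script was tested on simulated counts. Python 3.11.15, numpy 2.4.6, scipy 1.17.1, pandas 2.3.3 and matplotlib 3.10.9 were used, and edgeR 4.0.16 in R 4.3.3 gave scaling factors only. Alternatives were other scalings, pseudocount, UMI minimums, nucleus filters, thinning to 1000 UMIs, stricter gates and splits, and binarised accessibility.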

Additional observations from a re-analysis of the deposited data

Results flagged for a closer look

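Among the 15 members measured in both tumour and myeloid nuclei, 2 had genotype ratios of opposite sign in the classes. For Nup205, the tumour ratio (0.29) minus the myeloid ratio (-0.10) was 0.40. For Nup50, the tumour ratio (-0.16) minus the myeloid ratio (0.53, -0.05 to 1.13) was -0.70. These differences were not tested, since each rests on 1 library per genotype, and both myeloid intervals include 0.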

How the results depend on the processing

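No paired analysis was possible because each genotype has 1 library, and for the same reason no replicate could be left out. TMM and median-ratio scaling moved the median of all genes in tumour nuclei from 0.14 to -0.00 and 0.00. The member median went from 0.23 to 0.087 and 0.089, with 4 and 4 of 32 members in place of 9 counted as higher. The wider list had 0.21 and 0.21 under these scalings. Under TMM, 6 members turned to below 0, of which Nup210 (-0.091) had an interval that included 0 before. The others were Ahctf1 (-0.051), Nup188 (-0.0054), Nup54 (-0.015), Rae1 (-0.016) and Gle1 (-0.029). Under median-ratio scaling Nup210 had -0.089 and the other 5 had -0.049, -0.0033, -0.013, -0.014 and -0.027. At most 10% mitochondrial UMIs kept 2211 Sun1_WT and only 429 Sun1_KO tumour nuclei and gave a median of 0.13, beside 0.10 over all genes, with 5 members counted as higher and 1 as lower, and Nup133 (-0.050) and Nup85 (-0.061) below 0. Thinned nuclei gave 14 members higher, and Seh1l had -0.074, Nup62 0.64 and Nup50 0.010. Over all alternatives in tumour nuclei, 220 of 329 single-gene values (members and Sun1) stayed within the counting interval and 94 moved outside it. The other 15, whose interval had excluded 0, changed sign and are given above. The higher minimum and no minimum cannot alter a ratio, so their 32 of 32 and 33 of 33 values stayed within it by construction. Under TMM scaling 2 of 33 values stayed within it, and under median-ratio scaling also 2 of 33.

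In myeloid nuclei the number counted as higher, 5 of 15, was 10 of 32 with no minimum and 3 of 11 at 10% mitochondrial UMIs. It was 12 when thinned, where a lower minimum let more members be counted, and 1 of 11 under the stricter gate. The number lower was 2 with no minimum, 1 at 10% mitochondrial UMIs and 1 when thinned. The number above the median of all genes, 11 of 15, was 21 of 32, 6 of 11 and 17 in the same order. Shares of all genes past the fold were not computed under the alternatives. A minimum 10 times higher left no member to count there.

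In NK nuclei the median (0.13) was -0.21 when thinned, and its distance from the median of all genes (0.02) was -0.36 when thinned, -0.0091 with no minimum and -0.095 under the stricter gate. The NK numbers higher and lower, 5 and 1, were 3 and 2 under TMM and under median-ratio scaling, 10 and 5 with no minimum, 3 and 3 under the stricter gate, and 1 and 0 at the higher minimum, which left 1 member. With mitochondrial genes in the total 3 were higher, and when thinned 11 were lower. The number above the median of all genes, 10, was 1 at the higher minimum, 5 when thinned and 6 under the stricter gate. In T nuclei the median (0.18) was -0.0099 with a pseudocount of 5, -0.18 at the higher minimum (1 member) and -0.13 at 10% mitochondrial UMIs, and its distance from the median of all genes (0.15) was -0.078 and -0.11 in the last 2. The T numbers higher and lower, 11 and 2, were 6 and 5 with a pseudocount of 5, 0 and 0 at the higher minimum and 7 and 4 under the stricter gate. At 10% mitochondrial UMIs 3 were higher, and with no minimum 4 were lower. The number above the median of all genes, 17, was 0 at the higher minimum and 5 at 10% mitochondrial UMIs. In NK and T nuclei the number of members measured also depends on the setting, and all 32 were counted with no minimum. These numbers are therefore not on the same base as the 19 NK and 26 T members measured at first. Binarised accessibility gave a member median of -0.17, beside -0.11 over all promoter regions, in place of -0.03. The cause of these changes was not tested. The G2/M and tumour over myeloid medians kept their sign and size under the alternatives run for them. The number of members at least 20% lower in G2/M-high nuclei, 0 in both libraries, was 2 in Sun1_KO under the stricter split. When thinned it was 1 in Sun1_WT and 2 in Sun1_KO. Few UMIs limit the NK and T values most.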

Other observations

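Beside the pore, 11 other nuclear envelope genes were measured in tumour nuclei, with a median ratio of 0.03. In Sun1_KO 2 were at least 25% higher, beside 32.2% of all genes, and 5 at least 20% lower, beside 18.9%, and 3 of the 11 lay above the median of all genes. Besides Sun1, the lower genes were Banf1, a chromatin-bridging protein (128 and 85.8 CPM; -0.58, -0.65 to -0.50), Emd, encoding emerin (47.2 and 32.9 CPM; -0.52, -0.64 to -0.40), Tor1a, encoding torsin A (39.6 and 29.0 CPM; -0.45, -0.58 to -0.32) and Lmna, encoding lamins A and C (773 and 594 CPM; -0.38, -0.41 to -0.35). Higher were Lmnb1, encoding lamin B1 (210 and 269 CPM; 0.36, 0.31 to 0.41) and Sun2, the paralogue of Sun1 (38.8 and 49.2 CPM; 0.34, 0.23 to 0.45). The names of these genes were given because they passed the fold.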
